A study of Mus musculus with 4 samples.

Results

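The 7 mouse genes described here across 4 microarrays belong to class I antigen presentation: B2m, Tapbp, Tap1, Tap2, Psmb8, Psmb9 and Psmb10. The members were every probe set that the platform annotation pairs with only 1 of these 7 symbols, which gave 10 probe sets for 7 genes, out of 12422 probe sets and 8251 genes. The genes were selected on their intensities on these same 4 arrays, so all their values are a description and none carries a test. Tapbp had 3 probe sets (100154_at, 162104_f_at and 102689_at) and Tap1 had 2 (103035_at and 162278_r_at). Each other gene had 1, namely 93088_at for B2m, 102873_at for Tap2, 102791_at for Psmb8, 93085_at for Psmb9 and 101486_at for Psmb10. For every gene, the probe set with the highest mean over the 4 arrays stood for it.

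Class I molecules carry peptides from inside the cell to its surface, where T cells read them. The peptides are cut by the proteasome, moved into the endoplasmic reticulum by a transporter of TAP1 and TAP2, and loaded with the help of tapasin, which Tapbp encodes. B2m encodes beta-2-microglobulin, the light chain that every classical class I molecule needs in order to fold and reach the surface. Psmb8, Psmb9 and Psmb10 encode catalytic subunits that replace those of Psmb5, Psmb6 and Psmb7 when the immunoproteasome is assembled, and interferon gamma is their best known inducer. Undifferentiated mouse embryonic stem cells are known for low class I levels at their surface.

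The RNA came from E14tg2a, a mouse embryonic stem cell line kept here without feeder cells. One group held the cells called Akt12, in which the kinase Akt is constitutively active, after 4 days without leukemia inhibitory factor (LIF), and another Akt12 cells with LIF at 3000 U/ml. Control cells were sampled after the same 4 days without LIF, and also with LIF at 3000 U/ml. LIF is the cytokine that keeps such cells undifferentiated. Each group had 1 array, and no label describes another culture. The sources used here do not give the promoter or vector that drives Akt, whether Akt12 is a single clone, or whether control cells carry an empty vector. A trait of such a clone cannot be told apart from active Akt in any comparison of Akt12 with control cells.

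Values are intensities after quantile normalization, which gives each array the same distribution, and an intensity under 15.8, the 40th percentile of all values, was set to that floor. The arrays had between 5625 and 5659 genes above the floor. Of 12 stem cell markers, 10 were above the floor on all 4 arrays, and Esrrb was at the floor on all 4. The array of control cells without LIF lay furthest from the others. Its log2 differences from Akt12 cells without LIF had an SD of 0.709 over 5027 genes, and those from control cells with LIF an SD of 0.714. The SD between Akt12 cells without and with LIF was 0.512. Without that control array, neither LIF withdrawal in control cells nor Akt12 against control cells without LIF can be compared. The actin 3' to 5' ratio, a measure of RNA integrity, was 2.48 and 3.04 in Akt12 cells without and with LIF, against 1.66 and 2.33 in control cells without and with LIF. The Gapdh ratio was 2.46, 3.05, 3.19 and 3.03 on the same arrays in the same order. Control cells without LIF therefore had the lowest actin ratio but the highest Gapdh ratio, and the part of RNA integrity in the members' values was not tested.

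The promoter bases of B2m, Tapbp and Psmb8, the members that differed most between arrays, are printed here beside the interval between Psmb9 and Tap1, of which Psmb9 was below the floor throughout and Tap1 was not 2-fold different in any of the 4 comparisons. Promoter windows were found for 6 of the 7 genes in a RefSeq table of build GRCm38.p6, and Tap2 is named only. Psmb9, Tap1, Psmb8 and Tap2 are consecutive protein-coding genes in that order on chromosome 17, where Tapbp also lies, while B2m is on chromosome 2 and Psmb10 on chromosome 8. Each window below is the 250 bases before the start, 5′ to 3′ in the direction of the gene, except that the 225 bases between the starts of Psmb9 and Tap1 are given once. Those genes lie head to head, so the same bases precede both, and they are written in the direction of Tap1. Capitals mark letters of 4 motifs searched on both strands, without overlaps between motifs in these windows.
B2m, chr2:122147437-122147686, + strand: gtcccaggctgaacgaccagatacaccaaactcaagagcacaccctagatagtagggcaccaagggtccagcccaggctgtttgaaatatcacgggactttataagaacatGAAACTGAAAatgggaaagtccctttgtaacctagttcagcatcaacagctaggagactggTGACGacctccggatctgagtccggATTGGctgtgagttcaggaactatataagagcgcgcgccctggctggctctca
Tapbp, chr17:33919228-33919477, + strand: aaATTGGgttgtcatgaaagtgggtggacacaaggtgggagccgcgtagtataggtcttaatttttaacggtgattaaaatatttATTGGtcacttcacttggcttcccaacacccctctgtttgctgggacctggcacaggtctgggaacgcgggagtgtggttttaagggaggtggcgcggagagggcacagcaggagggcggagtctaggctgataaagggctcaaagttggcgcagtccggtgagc
Psmb8, chr17:34197945-34198194, + strand: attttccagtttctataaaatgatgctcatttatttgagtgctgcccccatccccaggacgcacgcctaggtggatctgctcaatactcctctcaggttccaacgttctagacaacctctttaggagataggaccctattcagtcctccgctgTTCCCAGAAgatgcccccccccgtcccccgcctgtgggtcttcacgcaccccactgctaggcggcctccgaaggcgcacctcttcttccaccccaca
Psmb9 to Tap1, chr17:34187331-34187555, + strand: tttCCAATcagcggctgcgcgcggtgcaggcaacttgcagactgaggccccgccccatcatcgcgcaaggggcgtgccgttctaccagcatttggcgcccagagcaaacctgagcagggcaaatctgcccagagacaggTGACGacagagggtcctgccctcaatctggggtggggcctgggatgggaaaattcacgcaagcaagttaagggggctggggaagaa

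The interferon-stimulated response element, searched as GAAA, any 2 bases and GAAA again, was found before B2m at -139 to -130 from the start and before no other member with a window. It was present in 2.98% of all 32851 such windows. The gamma-activated site, searched as TTCNNNGAA, was found before Psmb8 at -97 to -89 and in 7.02% of all windows. The CCAAT box, searched as CCAAT, was found before B2m, Tapbp, Tap1 and Psmb9 and in 33.8% of all windows. The core of the cyclic AMP response element, searched as TGACG, was found before B2m and between Psmb9 and Tap1 and in 17.8% of all windows. None of the 4 was found in the window of Psmb10. These are matches of letters and say nothing of binding in these cells.

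B2m, the class I light chain, was highest in control cells without LIF. Its intensity was 169 and 231 in Akt12 cells without and with LIF, against 504 and 140.2 in control cells without and with LIF. After LIF withdrawal it was 1.37-fold lower in Akt12 cells, at a log2 difference of -0.45, and 3.6-fold higher in control cells, at 1.85. The lines therefore differed in direction, but the difference in Akt12 cells was of ordinary size. It lay at the 16.0th percentile of all genes, whose log2 differences there had an SD of 0.542. With LIF, B2m was 1.65-fold higher in Akt12 than in control cells, and without LIF it was 2.98-fold lower. The intensities as deposited were 199.2 in Akt12 cells and 178.4 in control cells with LIF, so that part of the difference with LIF came from the normalization. Fewer cells with B2m RNA and less of it per cell cannot be told apart in RNA from whole cultures, for this gene or any below.

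Tapbp, which encodes the tapasin that bridges the transporter and empty class I molecules, had the highest log2 difference of the 7 genes after LIF withdrawal in control cells. The probe set that stood for it had an intensity of 63.5 and 51.1 in Akt12 cells without and with LIF, against 438 and 89.45 in control cells without and with LIF. After LIF withdrawal it was 1.24-fold higher in Akt12 cells and 4.9-fold higher in control cells. Akt12 cells were 1.75-fold lower than control cells with LIF and 6.9-fold lower without it. Both other probe sets were also highest in control cells without LIF, by smaller amounts. One of them, of the kind marked f because its probes can match a sequence family, gave 52.25 and 66.0 in Akt12 cells without and with LIF, and 114 and 64.1 in control cells without and with LIF. The other, dim probe set gave 32.9 and 19.95 in Akt12 cells without and with LIF and 45.9 in control cells without LIF, and was just under the floor in control cells with LIF. LIF withdrawal in control cells gave log2 differences of 2.29, 0.84 and at least 1.54 for the 3 probe sets. In Akt12 cells they gave 0.31, -0.34 and 0.72, which do not share a direction. Averaged over its probe sets, Tapbp differed by 1.56 in control cells after LIF withdrawal and by -1.47 between Akt12 and control cells without LIF.

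The transporter genes differed from each other. Tap1, which encodes a subunit of the peptide pump, had an intensity of 92.1 and 59.05 in Akt12 cells without and with LIF, against 59.2 and 46.6 in control cells without and with LIF. It was the only measured member that was highest in Akt12 cells without LIF. LIF withdrawal gave log2 differences of 0.64 in Akt12 and 0.34 in control cells, and Akt12 minus control gave 0.34 with LIF and 0.64 without, none of them 2-fold. Its other probe set, of a kind marked r because probe selection rules were relaxed, was below the floor on all 4 arrays. Tap2, which encodes the partner subunit, was below the floor on both Akt12 arrays and just above it in control cells, at 26.8 without LIF and 19.04 with LIF. Tap2 was thus at least 1.21-fold lower in Akt12 cells with LIF and at least 1.7-fold lower without LIF. Those bounds are close to 1 because the probe set was dim in control cells too.

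The immunoproteasome genes had a different pattern each. Psmb8, whose product takes the place of that of Psmb5, was below the floor in Akt12 cells without and with LIF, at 9.62 and 10.9 before the floor was set. In control cells its intensity was 110.2 without LIF and 41.4 with LIF, which is 2.66-fold higher without LIF. Akt12 cells were at least 2.63-fold lower than control cells with LIF and at least 6.99-fold lower without it. Psmb8 and Tap2 were the members above the floor on both control arrays and on neither Akt12 array, a pattern that 1.05% of 6258 genes showed. It was described after the values were seen, and the opposite pattern was shown by 1.07% of the same genes.

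Psmb10, whose product replaces that of Psmb7, was lowest in Akt12 cells with LIF. Its intensity was 86.4 and 53.0 in Akt12 cells without and with LIF, against 113 and 106 in control cells without and with LIF. LIF withdrawal gave a log2 difference of 0.70 in Akt12 cells and of 0.09 in control cells. Akt12 cells were 2.0-fold lower than control cells with LIF, a log2 difference of -0.996 that falls just short of 2-fold, and 1.3-fold lower without it. Psmb9, whose product replaces that of Psmb6 and whose start faces that of Tap1, was below the floor on all 4 arrays. Its probe set gave at most 12.7 as deposited, while the 19 probe sets for non-mouse transcripts reached 14.9. Psmb9 therefore could not show a difference in any comparison.

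**Figure D1:**
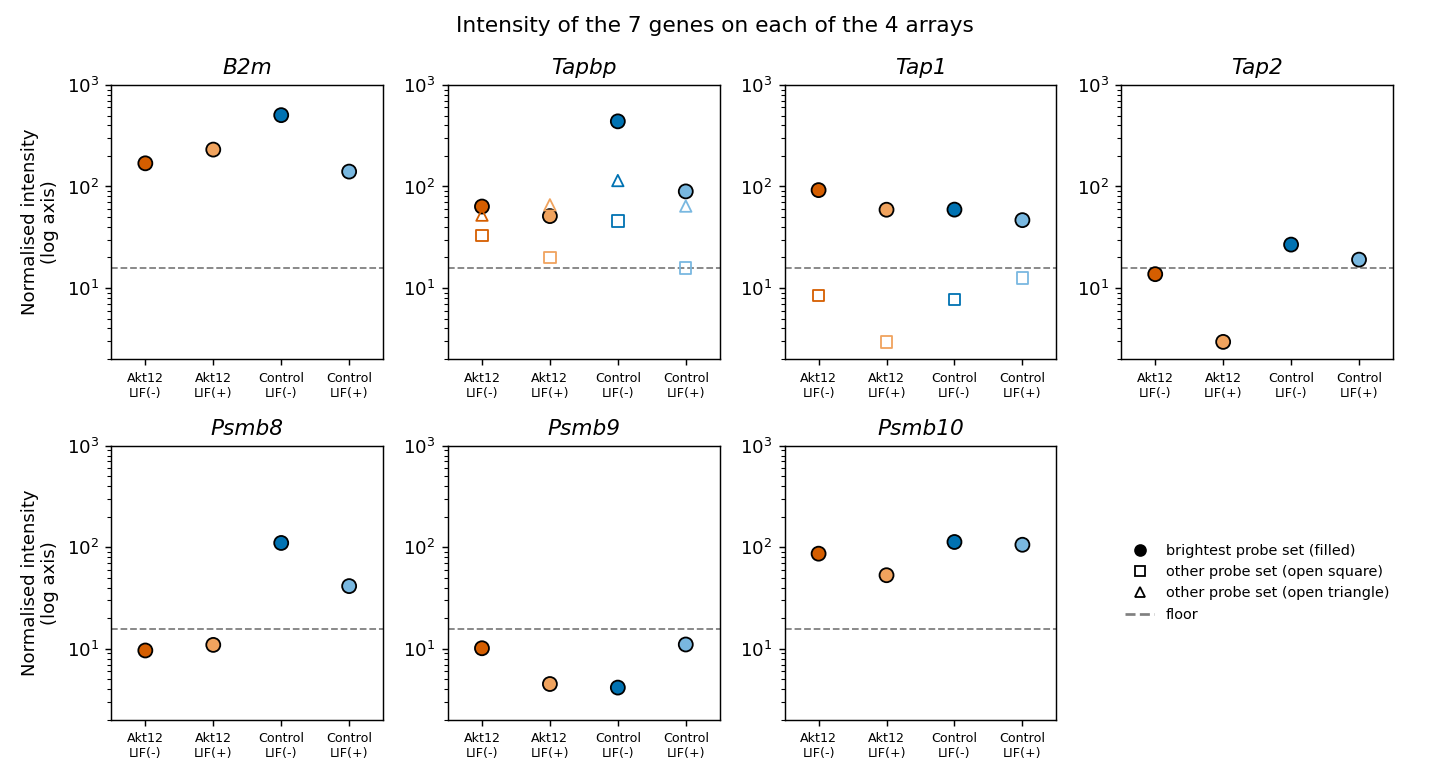
Normalised intensity (log axis) of each of the 7 genes on the 4 arrays, each point 1 array, with filled circles for the brightest probe set, open symbols for other probe sets and a dashed line at the floor of 15.8. B2m, Tapbp and Psmb8 peak on the array of control cells without LIF, Tap1 does not, and Psmb9 lies below the floor throughout; points below the floor have no order.

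After LIF withdrawal, 3 members were past 2-fold in control cells and none in Akt12 cells. In Akt12 cells, 4 of the 7 genes could be measured, which took a value over the floor on either array. None of the 4 was at least 2-fold different, where 3.01% of 5945 genes were higher, 3.65% lower and 6.66% different either way. The median log2 difference of these members was 0.48, against 0.01 for all genes. In control cells, 6 genes were measured, and 3 of them, Tapbp, B2m and Psmb8, were at least 2-fold higher, where 7.39% of 5984 genes were. None was 2-fold lower, where 6.4% of genes were, and 13.8% were different either way. The median of the members was 0.95, against -0.03 for all genes, and all 6 were above 0, though Psmb10 was at -0.18 with the values as deposited. Tapbp lay at the 99.1st percentile of all genes, B2m at the 98.1st and Psmb8 at the 96.1st. Since these arrays also chose the genes, nothing is read from those shares.

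The response of the lines was compared as the log2 difference in Akt12 cells minus that in control cells, which has no residual error with 4 arrays and was not tested. It was -2.30 for B2m and -1.98 for Tapbp, where 8.87% of 5671 genes were at -1 or below. It was 0.61 for Psmb10 and 0.30 for Tap1, and 10.1% of genes were at 1 or above, which makes 19% past 2-fold either way. For Tapbp the other probe sets gave -1.17 and, with control cells with LIF at the floor, at most -0.82. Psmb8 and Tap2 have no such value, because they were at the floor on both Akt12 arrays.

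**Figure D2:**
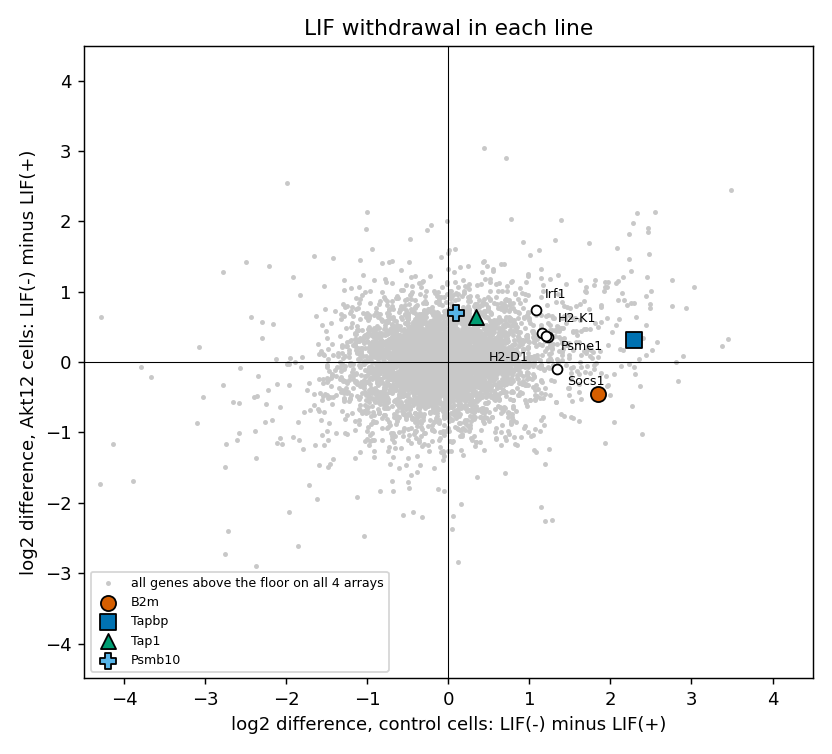
Log2 difference after LIF withdrawal in control cells (horizontal) and in Akt12 cells (vertical), 1 point per gene above the floor on all 4 arrays, with 4 members in colour and 5 other genes of the pathway as white circles. B2m and Tapbp lie far to the right at 1.85 and 2.29 and at -0.45 and 0.31 on the vertical axis, while Tap1 and Psmb10 lie at 0.34 and 0.09 on the horizontal axis and higher, at 0.64 and 0.70, on the vertical one.

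Between the lines, the members were lower in Akt12 cells more often than higher. Psmb8 and Tap2, at the floor on both Akt12 arrays, were measured only through control cells and could only come out lower. Their bounds enter the medians below. With LIF, 1 of 6 measured genes, Psmb8, was at least 2-fold lower and none was higher, where 3.64% of 5938 genes were lower, 3.5% higher and 7.14% different either way. Tapbp, Tap2 and Psmb10 were also below 0 and B2m and Tap1 above it, though Tap1 was at -0.20 with the values as deposited. The median was -0.54, against 0.01 for all genes. Without LIF, 3 of 6, Psmb8, Tapbp and B2m, were at least 2-fold lower and none was higher, where 8.12% of 6009 genes were lower, 5.87% higher and 14% different either way. Among the 6, Tap1 was above 0 there and the other 5 below it. The median was -1.17, against 0.06 for all genes. This comparison and that of LIF withdrawal in control cells share the array of control cells without LIF, so the genes they have in common are not independent. B2m, Tapbp and Psmb8 were at least 2-fold higher on that array than on each of the other 3, as were 4.68% of 6258 genes, a pattern described after the values were seen.

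**Figure D3:**
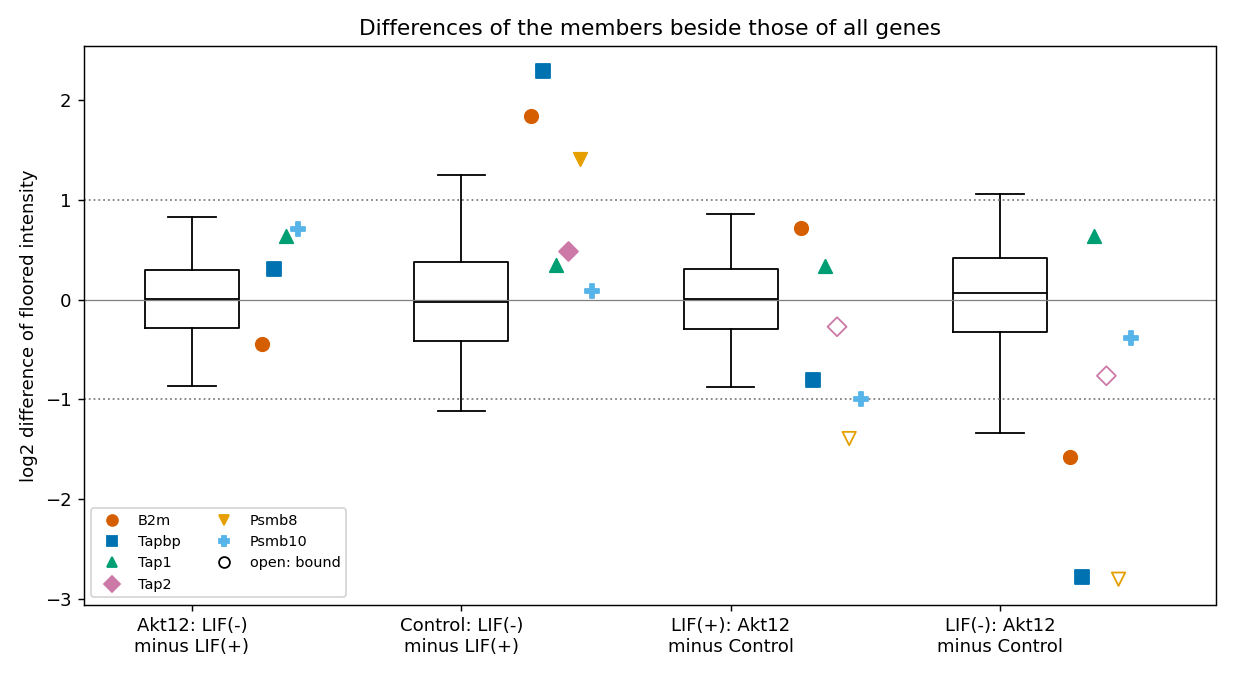
Log2 differences of the floored intensities in the 4 comparisons, with boxes for all genes (median, quartiles, whiskers from the 5th to the 95th percentile), symbols for members and open symbols for bounds; dotted lines mark 2-fold. Tapbp, B2m and Psmb8 lie above the upper whisker after LIF withdrawal in control cells and below the lower whisker in Akt12 minus control without LIF.

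The members did not share a single pattern. Over the 4 arrays, with each gene centred on its own mean log2 level, the root mean square distance between B2m and Tapbp was 0.752, between B2m and Tap1 0.801 and between Tapbp and Tap1 1.34. The closest pair was Tap1 and Psmb10 at 0.597. Of 5023 other genes above the floor on all 4 arrays, those nearest the median pattern of B2m, Tapbp, Tap1 and Psmb10 were Slc6a6, Alyref, Anxa6, Cebpa, Cavin1, Sparc, Rnf19a, Hmgb3, Tcf12 and Gm1673, at distances of 0.054 to 0.0708. That median was 0.76 in control cells without LIF and between -0.39 and -0.22 on the other arrays. On the array of control cells without LIF, B2m was at 1.14, Tapbp at 2.04, Tap1 at -0.07 and Psmb10 at 0.39. The genes named are thus near the median and not near a single member. With 4 arrays, such likeness is a description of where the highest level fell.

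The catalytic subunits that the immunoproteasome subunits replace did not share the direction of Psmb8. Psmb5, Psmb6 and Psmb7 gave log2 differences of 0.11, 0.04 and -0.03 after LIF withdrawal in Akt12 cells, and of -0.42, -0.58 and -0.24 in control cells. Scaled to the hybridization controls, the median of these 3 genes in Akt12 cells was -0.20 in place of 0.04, and as deposited it was -0.02. None of the 3 was 2-fold different in any of the 4 comparisons. Of 11 other subunits of the proteasome core, none was 2-fold different in any of the 4 comparisons either, except 1 lower in Akt12 cells with LIF as deposited, and 10 of 11 were below 0 after LIF withdrawal in control cells. Of 18 measured subunits of the regulatory particle, likewise none was 2-fold different in them. As deposited, though, 3 of these were 2-fold lower after LIF withdrawal in control cells. Over all genes, 6.66% and 13.8% were 2-fold different after LIF withdrawal in Akt12 and control cells. Between the lines, 7.14% were with LIF and 14% without LIF. Nothing is read from counts of none in lists this small.

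The PA28 activator, a ring that caps the proteasome, had 2 genes measured on their own. Psme1, which encodes an interferon-inducible subunit, had an intensity of 80.8 and 63.3 in Akt12 cells without and with LIF, against 261 and 111 in control cells without and with LIF. It was thus 2.35-fold higher without LIF in control cells, 1.28-fold higher in Akt12 cells, and 3.23-fold lower in Akt12 than in control cells without LIF. Its other probe set was at the floor on all 4 arrays, and the mean of both gave log2 differences of 0.62 in control cells after LIF withdrawal and -0.85 between the lines without LIF, neither of them 2-fold. As deposited, the value in control cells was 0.90. Psme3, whose product forms a separate nuclear cap, was not 2-fold different in any of the 4 and was at -0.36 after LIF withdrawal in control cells. The probe sets of Psme2 were paired with another symbol as well and are not named.

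Among class I heavy chain genes, which encode the partners of B2m, 8 of 13 on the array with 1 symbol were above the floor on at least 1 array. In control cells after LIF withdrawal, 3 of these 8 were past 2-fold upwards, none was past it downwards, and the median was 0.63. Over all genes, 7.39% were past 2-fold upwards there and 6.4% downwards. The brightest probe set of H2-K1 gave 217 and 163 in Akt12 cells without and with LIF, against 378 and 170.2 in control cells without and with LIF. H2-D1 had 123, 94.7, 214 and 92.3 on the same arrays in the same order. H2-Q1 was above the floor on 1 array, that of control cells without LIF, at 47.7, which is at least 3.02-fold higher than with LIF. In Akt12 cells none of 7 was 2-fold different after LIF withdrawal, where 6.66% of all genes were. The median of these 7, at 0.26, was -0.0003 when scaled to the hybridization controls. Heavy chain genes are closely similar in sequence and their probe sets can share signal, so the values of single heavy chains are uncertain. The other probe sets of H2-K1 gave 0.95 and -0.02 in control cells after LIF withdrawal, where the brightest gave 1.15. As deposited, H2-K1 was at 0.80 and H2-D1 at 0.92, and 1 of the 8 heavy chains was past 2-fold.

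Other genes of peptide loading were not 2-fold different in any of the 4 comparisons over 8 measured genes. Over all genes, between 6.66% and 14% were 2-fold different in each comparison, so little can be read from 8 genes. The 8 included Canx and Pdia3, which encode a chaperone and an oxidoreductase of class I folding. Canx was at 0.43 after LIF withdrawal in Akt12 cells and at 0.17 in control cells, where it was -0.10 as deposited. Of 17 measured genes elsewhere in the MHC region, 1 was at least 2-fold lower after LIF withdrawal in control cells and none higher, against 2 lower as deposited. That gene was Daxx, a chromatin-associated gene near Tapbp, at -1.60, while Tapbp was at 2.29. Of 5 measured genes of the class II pathway, Cd74, which encodes the invariant chain, and H2-DMa were 2-fold higher in control cells without LIF, at 1.25 and 1.22. Over all genes, 7.39% were 2-fold higher after LIF withdrawal in control cells and 6.4% lower. H2-DMa was not highest there, with 54.6 and 53.35 in Akt12 cells without and with LIF, against 45.7 and 19.55 in control cells. With LIF it was 2.73-fold higher in Akt12 than in control cells. Cd74 was at 0.62 with the floor at the 60th percentile, and H2-DMa at 0.61 as the mean of its probe sets. Ciita, the master regulator of class II genes, was at 16.2 in control cells with LIF and at the floor on the other arrays.

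Genes of interferon signalling were described because interferon is the known inducer of several members. Irf1, a transcription factor gene that acts on class I and immunoproteasome promoters, had an intensity of 52.7 and 31.6 in Akt12 cells without and with LIF, against 230 and 109 in control cells without and with LIF. Akt12 cells were 4.36-fold lower without LIF and 3.44-fold lower with LIF. The kinase gene Jak2 was at least 3.94-fold higher in control cells after LIF withdrawal, and Socs1, a feedback inhibitor of that pathway, was 2.52-fold higher. In all, 3 of 11 measured signalling genes were 2-fold higher there and none lower, where 7.39% of all genes were higher and 6.4% lower. Of the interferon gamma receptor genes, Ifngr2 was at the floor on all 4 arrays. Ifngr1 was at 22.8 and 16.35 in control cells without and with LIF and at the floor in Akt12 cells. The log2 difference of Irf1 there was 1.08, and 0.76 in the values as deposited, and that of Jak2 was 0.38 with the floor at the 60th percentile. The other probe set of Jak2 was at the floor on all 4 arrays. In Akt12 cells none of 12 was 2-fold different after LIF withdrawal, where 6.66% of all genes were. No probe set was paired with Nlrc5 alone, so this regulator is not analysed here.

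Interferon-induced genes outside antigen processing were described for the same reason. Of 24 on the array, 15 were above the floor on at least 1 array. The others, Ifit1, Ifit2, Ifit3, Mx1, Usp18, Rsad2, Cxcl9, Ube2l6 and Ifi47, were at the floor on all 4. In control cells after LIF withdrawal, 8 of 12 were past 2-fold upwards and none downwards, where 7.39% and 6.4% of all genes were. Several of the 12, Cxcl10 among them, were at the floor with LIF and were measured only through their level without LIF. Those could only come out higher. The median of the 12, bounds included, was 2.34, where all genes had -0.03. With the floor set at the 60th percentile the median was 1.37 and 6 of 9 were past 2-fold, and with it at the 20th the median was 1.44, with 12 of 18 upwards and 1 downwards. The guanylate-binding protein genes Gbp2b, Gbp2 and Gbp3 were 8.02-fold, 7.22-fold and 7.37-fold higher, and Cxcl10, a chemokine gene, at least 7.81-fold. All 3 guanylate-binding protein genes were at the floor on both Akt12 arrays, as Psmb8 was. Without LIF, 9 of 14 were at least 2-fold lower in Akt12 than in control cells and none higher. Over all genes, 8.12% were lower there and 5.87% higher. Genes at the floor in Akt12 cells and over it in control cells could only come out lower. In Akt12 cells after LIF withdrawal 6 of the genes were measured and none was 2-fold different, where 6.66% of all genes were. At the lower floor, 2 of 15 were higher and 4 lower.

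**Figure D4:**
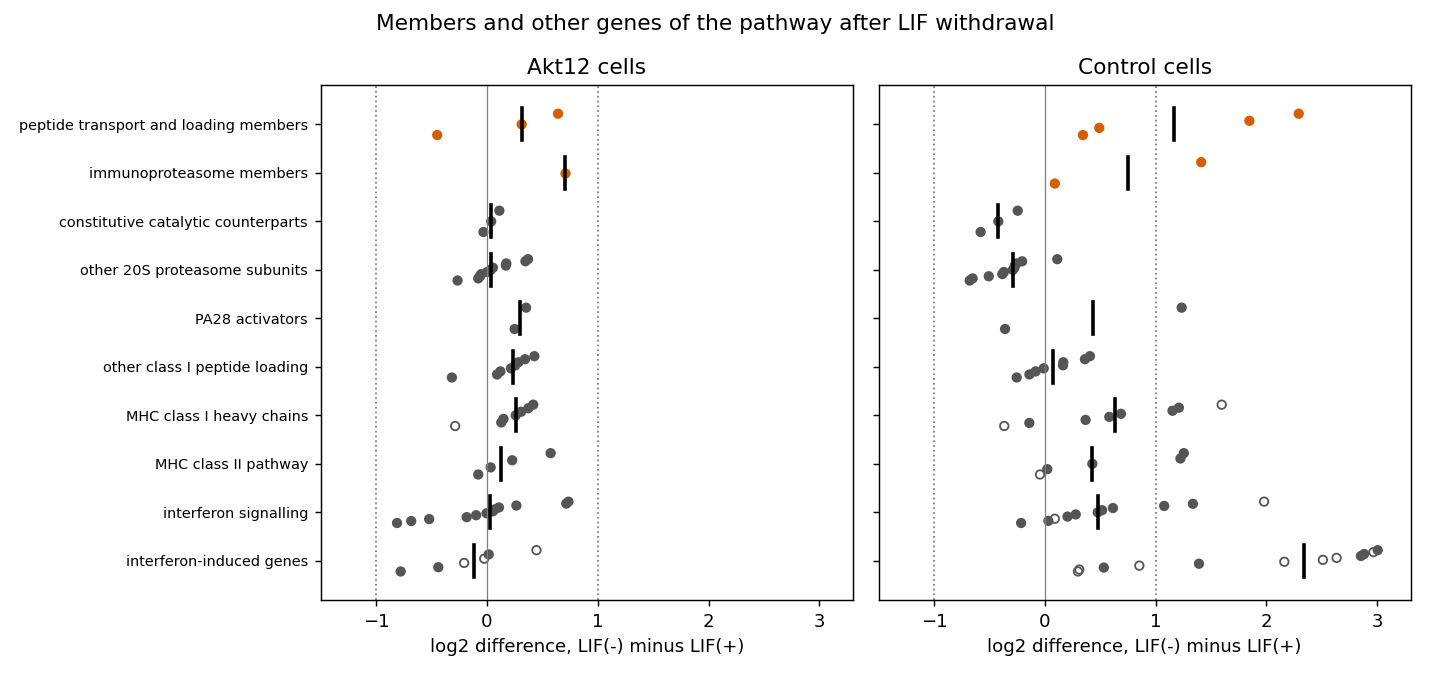
Log2 difference after LIF withdrawal in Akt12 cells (left) and control cells (right), 1 point per measured gene, with members in orange, other genes in grey, bounds as open circles, a black bar at each group's median and dotted lines at 2-fold. In control cells Tapbp, B2m and Psmb8 lie past 2-fold, as do 8 of 12 interferon-induced genes, together with 3 class I heavy chains. Genes at the floor with LIF and measured only without it could only lie above 0. The proteasome core genes lie near or below 0, and in Akt12 cells no point passes 2-fold, where 6.66% of all genes did.

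Markers of other cells were set beside these values. Of 9 blood or immune cell markers on the array, 5, namely Ptprc, Cd3e, Lyz2, Itgam and Fcer1g, were at the floor on all 4 arrays. The summed intensity of the 9 was 171 and 265 in Akt12 cells without and with LIF, against 161 and 155 in control cells without and with LIF, with the 5 dim markers entering at their unfloored values. The summed intensity of 9 fibroblast or feeder markers was 322, 356, 589 and 258 in the same order, with 4, 4, 7 and 4 of them above the floor, and Postn and Pdgfrb at the floor throughout. That of 5 endothelial markers was 75.9, 88.8, 53.1 and 81.5, with 1, 2, 1 and 3 of them above the floor. Pecam1 alone gave 52.25, 46.3, 19.4 and 42.85 of it, and Cdh5 and Tie1 were at the floor throughout. The summed intensity of 8 trophoblast markers was 816, 671, 2308 and 802, with Elf5 at the floor throughout. For 12 stem cell markers it was 4662, 9230, 1912 and 8090. Control cells without LIF therefore had the highest fibroblast and trophoblast sums and the lowest stem cell sum as well as the highest B2m, Tapbp and Psmb8. Not every marker followed its sum. Krt8, Krt18 and Krt19 gave 768, 627 and 538 of the trophoblast sum there, while Tfap2c was lowest there, at 226. Dcn, Col1a1, Col1a2 and Col3a1 were highest there, while Thy1 was lowest, at 27.6, and Pdgfra was highest in Akt12 cells with LIF. Nanog was at 697 there, above the 647 of Akt12 cells without LIF. The part of those cell types in the values of the members was not tested.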

How the data were processed

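RNA of 4 cultures was measured on 1 Affymetrix array each. The authors deposited linear intensities, with software and scaling not given in the sources used here. Their 2% trimmed means ran from 80.5 to 121, so they were treated as unscaled. After 66 array controls were left out, 12422 probe sets went through limma 3.58.1 (R 4.3.3) for quantile normalization and were floored at the 40th percentile and turned into log2. The annotation paired 10833 of them with a single symbol. For 10817 of these the gene identifier was in the RefSeq table (GRCm38.p6), which gave the symbol used.

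With 1 array per group there is no test, and the number of arrays limits the precision. A log2 difference of 1 or more counted as 2-fold, among genes over the floor on either array. Where the floor stands for 1 side, the fold is a lower bound. The members and gene lists were chosen with earlier results of these data known. By rule, all members, up to 4 genes with the largest differences per list and comparison, Irf1, Nlrc5, Psme1, Psme2, Psmb5, Psmb6, Psmb7 and the 10 genes nearest the members' pattern could be named, and 1 further gene of the rule is not reported here. The log2 difference between 2 arrays was checked on simulated data with known differences, drawn from genes above the floor on all 4 arrays. That simulation applied no floor, so it did not check counts that rest on floored values. Alternatives were 3 other scalings, 2 other floors and the mean of a gene's probe sets.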

Additional observations from a re-analysis of the deposited data

Results flagged for a closer look

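B2m is singled out because its values after LIF withdrawal had opposite directions, with a log2 difference of -0.45 in Akt12 cells and 1.85 in control cells. That contrast was not tested, because each line had 1 array per condition. The value in Akt12 cells comes from 1 probe set and lies within the SD of 0.542 over all genes there.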

How the results depend on the processing

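Each group holds 1 array, so no spread between cultures is known and no array could be left out. No paired analysis was possible because no group has a replicate. Signal over background limits Psmb9, Tap2 and the Akt12 values of Psmb8 to bounds or to no value. Across the alternatives the log2 difference after LIF withdrawal in control cells ran from 1.56 to 2.29 for Tapbp, from 1.48 to 1.85 for B2m and from 1.19 to 1.502 for Psmb8. Of the recomputed medians and counts of the members, 78 stayed close to the value given and 12 moved. Under a lower floor, the 20th percentile at an intensity of 4.225, 2 members were 2-fold higher after LIF withdrawal in Akt12 cells in place of 0. They were Psmb9 and Tap2, at most 12.1 in Akt12 cells as deposited, under the 14.9 that probe sets for non-mouse transcripts reached. In control cells 1, Psmb9, was 2-fold lower in place of 0, and the median was 0.49 in place of 0.95. At that floor 1 member, Psmb9, was higher in Akt12 than in control cells without LIF in place of 0. With LIF 3, namely Psmb8, Psmb9 and Tap2, were lower in place of 1, with a median of -0.996 in place of -0.54. The difference of the responses then had 2 members, Psmb9 and Tap2, higher in place of 0 and a median of 0.30 in place of -0.84. The count of members lower in Akt12 than in control cells with LIF was 2 with equal trimmed means, 3 as deposited, where the median was -0.98, and 0 when the 60th percentile was the floor. For the endothelial markers in Akt12 against control cells without LIF, the median rests on 1 gene, was 1.43 and turned to -0.0719 under the lower floor. That gene, Pecam1, was above both floors on these arrays, so the turn came from markers that were under the main floor. Over all genes, the floors at the 20th and 60th percentiles gave 480 and 69 genes higher after LIF withdrawal in Akt12 cells in place of 179, and 720 and 297 in control cells in place of 442. They gave 526 and 105 genes lower in Akt12 than in control cells with LIF in place of 216, and 778 and 312 without LIF in place of 488. As deposited, 66 genes were higher and 1002 lower in Akt12 than in control cells with LIF, in place of 208 and 216. Among genes past 2-fold, the higher ones made up 45.2% after LIF withdrawal in Akt12 cells, 53.6% in control cells, 49.1% between the lines with LIF, 42.0% without LIF and 53.2% for the difference of the responses. Scaled to the hybridization controls it was 24.7% after LIF withdrawal in Akt12 cells, 63.3% between the lines with LIF and 41.1% for the difference of the responses, with medians of all genes at -0.16, 0.13 and -0.07. As deposited it was 30.2% in control cells, 6.18% with LIF, 18.8% without LIF and 75.9% for the difference, with medians at -0.26, -0.52, -0.23 and 0.30.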
